A study of Mus musculus with 18 samples.

Results

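The nuclear genes of oxidative phosphorylation were followed across 3 mandibular tissues and 2 genotypes. They were taken by name, as protein-coding genes on nuclear chromosomes whose symbol starts with Nduf, with Sdh followed by a, b, c or d, with Uqcr, with Cox4 to Cox8, or with Atp5. The rule found 97 of the 38243 genes counted, or of the 21168 that code for protein on nuclear chromosomes. They comprise 38 genes named for complex I, 8 Ndufaf assembly factors of complex I, the 4 subunits of complex II, 8 genes of complex III, 18 of complex IV and 17 of complex V. The prefix Sdh also takes in Sdhaf1, Sdhaf2, Sdhaf3 and Sdhaf4, which are assembly factors of complex II, and these 4 were counted apart. A further 11 processed pseudogenes share a prefix and were left out. No expression value was used to choose the genes.

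RNA was measured in 18 libraries from 6 female C57BL/6 embryos at E16.5. Of these, 3 embryos carried the Apert syndrome mutation Fgfr2S252W on 1 allele (Fgfr2+/S252W, here S252W) and 3 were Fgfr2+/+ littermates (here WT). From each embryo 1 library each of mandibular bone, Meckel's cartilage (MC) and mandibular condylar cartilage (condyle) was made from cells taken by laser capture microdissection, so that each of the 6 groups holds 3 libraries. No promoter or Cre limits the mutation to a cell type as far as the labels say, and RNA of all cells under the laser enters a library. That the 3 libraries with 1 number in a genotype come from 1 embryo was read from the sample descriptions.

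Oxidative phosphorylation is carried out in the inner mitochondrial membrane. Complex I takes electrons from NADH and complex II takes them from succinate. Complex III passes them through cytochrome c to complex IV, which reduces oxygen. The proton gradient built by complexes I, III and IV drives complex V, the ATP synthase. Most subunits are encoded in the nucleus, and a few core subunits of complexes I, III, IV and V are encoded by mitochondrial DNA. Bone-forming cells are known to raise mitochondrial respiration as they differentiate, while chondrocytes in avascular cartilage depend largely on glycolysis. Several subunits of complex IV exist as isoforms from separate genes, among them forms known from heart and skeletal muscle, lung or testis. Ndufa4, named for complex I and counted with it here, is now regarded as a subunit of complex IV.

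Libraries held 8218548 to 15585778 fragments assigned to genes. Libraries of MC stood apart in their make-up. The transcript Gm42418, which overlaps ribosomal RNA, took 24.1 to 39.4% of fragments in MC, 5.58 to 9.33% in bone and 10.9 to 20.2% in the condyle. Genes of mitochondrial DNA took 19.4 to 38.1% over all libraries. Chondrocyte markers such as Col2a1 and Acan summed to 32230 to 39720 CPM, counts scaled to library size, in the condyle and to 2448 to 10144 CPM in 5 libraries of MC. The library labelled WT MC replicate 1 held 442 CPM of them, within the 228 to 590 CPM of bone, so counts of genes of oxidative phosphorylation called against WT MC are given with and without it. Counts with a length curve subtracted and counts of markers include it unless stated. Osteoblast markers summed to 25738 to 59939 CPM in bone, to 2706 to 6042 CPM in MC and to 7471 to 8971 CPM in the condyle, except for 16827 CPM in WT condyle replicate 3 and 26710 CPM in S252W condyle replicate 3. Skeletal muscle markers summed to 826 and 758 CPM in WT bone replicates 1 and 2, against 60.5 to 143 CPM in the other 4 bone libraries. They reached 1010 CPM in WT MC replicate 2, 524 and 251 CPM in WT condyle replicates 3 and 2 and 308 CPM in S252W MC replicate 3.

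The 97 genes took a share of all fragments that ordered the tissues. Atp5b alone held 24412 of their 77967 fragments in S252W bone replicate 1 and 1893 of 10412 in S252W MC replicate 1. In bone the share was 0.441, 0.522 and 0.477% in WT replicates 1 to 3 and 0.574, 0.556 and 0.477% in S252W. In the condyle it was 0.407, 0.393 and 0.357% in WT and 0.412, 0.370 and 0.262% in S252W. In MC it was 0.232, 0.0869 and 0.0810% in WT and 0.101, 0.0828 and 0.111% in S252W. Every MC library lay below every condyle library, and within each genotype the lowest bone library lay above the highest condyle library. Counting error is small beside these gaps. The 95% Wilson interval of the lowest library, WT MC replicate 3, was 0.0793 to 0.0828%, and such intervals cover counting error only. Without Gm42418 and the mitochondrial genes in the total, the means were 0.801 ± 0.121% (SD, n = 3) in WT bone, 0.608 ± 0.021% in WT condyle and 0.337 ± 0.114% in WT MC. In S252W they were 0.759 ± 0.070%, 0.578 ± 0.067% and 0.316 ± 0.030%. The order of the 3 tissues was the same, and the ratio of the other tissues to MC was smaller, while the difference in percentage points was not. That smaller total was 2309734 to 4960691 fragments in MC, 6207416 to 11008126 in bone and 4569852 to 8365856 in the condyle. In captured tissue, fewer cells of a type, less RNA of these genes per cell and library quality that differs by tissue cannot be told apart.

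**Figure D1:**
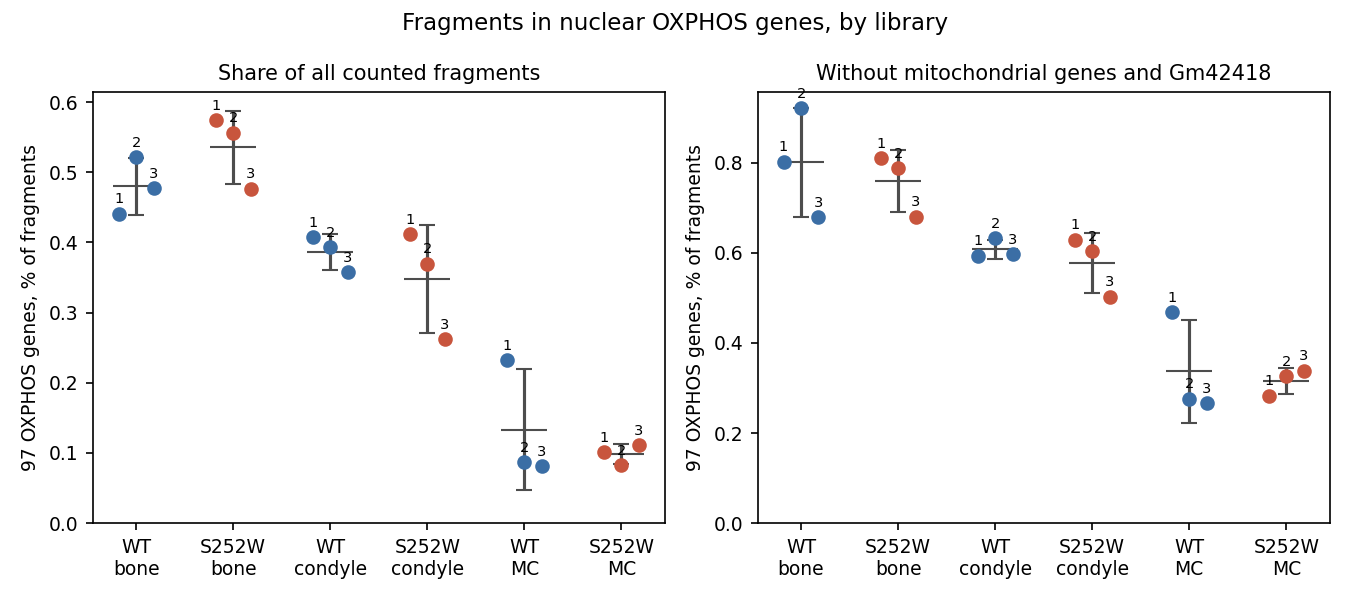
Share of all assigned fragments (left) and of fragments without mitochondrial genes and Gm42418 (right) taken by the 97 genes, in percent; each point is a library marked by its replicate number and bars give the group mean ± SD of 3 libraries. MC libraries lie lowest in both panels, and WT MC replicate 1 (0.232% of all fragments) lies above the other 5.

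Levels were compared between genes as FPKM, fragments per kilobase of exon scaled for library size, averaged over the 18 libraries. Atp5b, the catalytic beta subunit of the ATP synthase, had the highest level at 411 FPKM. Cox6a1 (110 FPKM), Cox8a (88.4 FPKM) and Cox4i1 (78.4 FPKM) of complex IV followed. The next were Atp5a1 (72.1 FPKM), the alpha subunit that forms the catalytic head with Atp5b, and Uqcrh (62.3 FPKM), the hinge protein of complex III. The highest gene named for complex I was Ndufa4 at 51.7 FPKM, and that of complex II was Sdhd, which anchors the enzyme in the membrane, at 40.6 FPKM. At the low end of those tested were Ndufb2 (2.61 FPKM) in complex I, Sdhc (11.5 FPKM) in complex II, Uqcrq (9.43 FPKM) in complex III, Cox6b2 (2.23 FPKM) in complex IV and Atp5s (2.96 FPKM) in complex V. Summed by complex, complex V made up 34.3 to 40.8% of the FPKM of all 97 genes in the 6 groups, complex I 22.4 to 27.3% and complex IV 19.3 to 24.5%. Atp5b is a large part of complex V, with 652 of 1264 FPKM in S252W bone replicate 1 and 132 of 385 FPKM in S252W MC replicate 1. The sum over complex V was 1168 ± 138 FPKM (SD, n = 3) in WT bone, 1033 ± 24.2 FPKM in WT condyle and 514 ± 103 FPKM in WT MC. In S252W it was 1174 ± 113, 1017 ± 89.9 and 453 ± 68.0 FPKM in the same order. These levels depend on the length given to a gene. With the length of the main transcript in place of all exons, Ndufa4 stood at 41.7 FPKM and Ndufb9 at 46.9 FPKM, so that Ndufb9 was then the highest gene of complex I, while the highest gene of each other complex was as before. The 3 genes whose level rose most as a ratio by this change, named after their values were seen, were Cox7c, which moved from 15.9 to 33.4 FPKM, Ndufb8 from 6.85 to 25.1 FPKM and Ndufa11 from 3.68 to 18 FPKM. The largest rise as a difference was that of Atp5c1, from 46.5 to 76.1 FPKM.

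A gene was tested where its level passed 1 FPKM in at least 50% of the libraries, which 11469 genes did. Of the 97 genes 91 passed. The 6 others were Sdhaf3 and the complex IV isoforms Cox6a2, Cox7a1, Cox7b2, Cox8b and Cox8c. Cox6a2, Cox7a1 and Cox8b are the forms known from heart and skeletal muscle. Cox6a2 was highest in WT bone replicate 1, at 2.34 FPKM from 23 fragments, and in WT MC replicate 2 and WT bone replicate 2, at 1.16 and 1.12 FPKM. These are the 3 libraries with the most skeletal muscle markers (758 to 1010 CPM). Cox7a1 was highest in S252W bone replicate 2, at 1.58 FPKM from 13 fragments, where muscle markers summed to 68.1 CPM, and had 0 fragments in WT MC replicate 2. Cox8b was highest in WT MC replicate 2, at 2.11 FPKM from 4 fragments, and next in S252W MC replicate 2, at 1.87 FPKM from 3 fragments, where muscle markers summed to 45.9 CPM. The part of muscle cells in these values was not tested. Cox8c had no fragment in any library, where a count of 0 allows up to 3 fragments, and Cox7b2 had 1 fragment in 1 library.

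Promoter sequence was available in RefSeq (GRCm38.p6, 250 bases before to 50 after the start) for 78 of the 97 genes, with 83 promoters in all. The promoters of the gene with the highest level in each complex, by the length of all exons, are shown. All 5 genes were also higher in bone and in the condyle than in MC in both genotypes. Capitals mark matches, on either strand, to GCATGCGC (NRF1), CCGGAAG (ETS factors), AAGATGGC (YY1), AAGGTCA (a nuclear receptor half-site) and GGGCGG (GC box).
Ndufa4, chr6:11907401-11907700, minus strand: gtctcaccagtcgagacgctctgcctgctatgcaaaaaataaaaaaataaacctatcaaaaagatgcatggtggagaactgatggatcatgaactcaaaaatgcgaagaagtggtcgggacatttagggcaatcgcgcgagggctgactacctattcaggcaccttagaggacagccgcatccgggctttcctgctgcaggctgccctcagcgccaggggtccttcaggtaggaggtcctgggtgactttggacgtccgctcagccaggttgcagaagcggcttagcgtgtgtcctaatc
Sdhd, chr9:50603800-50604099, minus strand: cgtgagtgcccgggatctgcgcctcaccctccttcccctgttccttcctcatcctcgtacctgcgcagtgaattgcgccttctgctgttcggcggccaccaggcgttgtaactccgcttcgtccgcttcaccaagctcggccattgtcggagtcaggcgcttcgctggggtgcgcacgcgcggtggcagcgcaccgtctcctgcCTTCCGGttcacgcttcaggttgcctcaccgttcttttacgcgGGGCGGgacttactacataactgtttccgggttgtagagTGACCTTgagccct
Uqcrh, chr4:116075021-116075320, minus strand: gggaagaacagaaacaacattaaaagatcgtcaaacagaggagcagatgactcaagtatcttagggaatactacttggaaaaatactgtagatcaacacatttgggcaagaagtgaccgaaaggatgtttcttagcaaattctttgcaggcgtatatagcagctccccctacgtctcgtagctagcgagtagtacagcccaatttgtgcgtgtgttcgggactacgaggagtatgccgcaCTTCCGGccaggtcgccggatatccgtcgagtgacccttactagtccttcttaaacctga
Cox6a1, chr5:115348909-115349208, minus strand: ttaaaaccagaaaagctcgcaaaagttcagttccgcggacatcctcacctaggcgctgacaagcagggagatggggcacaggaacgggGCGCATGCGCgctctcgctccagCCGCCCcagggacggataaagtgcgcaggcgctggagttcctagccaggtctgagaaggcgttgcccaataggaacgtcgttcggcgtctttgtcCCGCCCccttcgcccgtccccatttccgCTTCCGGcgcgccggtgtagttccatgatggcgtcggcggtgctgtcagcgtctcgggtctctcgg
Atp5b, chr10:128083057-128083356, plus strand: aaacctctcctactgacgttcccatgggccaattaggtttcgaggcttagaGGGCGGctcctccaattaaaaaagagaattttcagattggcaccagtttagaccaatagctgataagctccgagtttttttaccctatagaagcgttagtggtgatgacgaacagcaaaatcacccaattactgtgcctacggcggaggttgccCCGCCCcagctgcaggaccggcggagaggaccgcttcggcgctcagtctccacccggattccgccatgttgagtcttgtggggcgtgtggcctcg

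In the promoter of Cox6a1 a match to the NRF1 motif starts at −162 and, since the motif is nearly its own complement, a second on the other strand at −160 overlaps it. GC boxes start at −139 and −44 and an ETS match at −16, counted from the start site. The promoters of Sdhd and Uqcrh each hold an ETS match, at −46 and −10. That of Atp5b holds GC boxes at −199 and −45, and that of Ndufa4 holds none of the letters searched. Over all promoters of these genes, the NRF1 motif was in 12 of 83 (14.46%), against 3.69% of 19807 promoters of protein-coding genes. The ETS motif was in 21 (25.3% against 12.01%), the YY1 motif in 10 (12.05% against 3.13%) and the half-site in 8 (9.64% against 3.98%). GC boxes were in 38 (45.78% against 48.29%). At least 1 of the first 3 motifs was in 36 promoters (43.37% against 17.33%). These are matches of letters in a window of 300 bases, described without a test, and say nothing of binding in these tissues.

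In all 5 genes shown above, every bone and every condyle library lay above every MC library of the same genotype. Atp5b stood at 413, 621 and 534 FPKM in WT bone, at 465, 476 and 461 FPKM in WT condyle and at 231, 127 and 166 FPKM in WT MC. In S252W it stood at 652, 578 and 553 FPKM in bone, at 526, 584 and 470 FPKM in the condyle and at 132, 229 and 176 FPKM in MC. Bone and condyle overlapped, and both were well above MC. Sdhd stood at 50.7, 68.1 and 53.1 FPKM in WT bone, at 51.6, 56.1 and 40.4 FPKM in WT condyle and at 25.9, 13.1 and 16.0 FPKM in WT MC. Cox6a1 stood at 138, 121 and 100 FPKM in WT bone, at 133, 154 and 249 FPKM in WT condyle and at 90.0, 68.7 and 38.7 FPKM in WT MC. For Cox6a1 the highest MC library, WT replicate 1, came close to the lowest bone library of WT. Ndufa4 stood at 124, 109 and 55.3 FPKM in WT bone, at 49.6, 52.5 and 57.0 FPKM in WT condyle and at 39.7, 17.1 and 33.2 FPKM in WT MC. Uqcrh stood at 149, 96.3 and 69.1 FPKM in WT bone, at 62.1, 79.4 and 70.0 FPKM in WT condyle and at 28.9, 24.8 and 38.7 FPKM in WT MC. The highest bone values of both genes were in WT replicates 1 and 2, the bone libraries with the most muscle markers, and replicate 3 lay near the condyle.

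Bone was compared with MC within embryos, with limma on voom values and the embryo as a block, and p-values were adjusted by the Benjamini-Hochberg method over all 11469 genes. In WT embryos 45 of the 91 genes rose in bone relative to MC and none fell (percent of all tested genes called: 18% higher and 17% lower). The median log2 fold change over the 91 genes was 0.85, against −0.016 over all genes tested. In S252W embryos 50 rose and 1, Cox6b2, fell (19.2% of all genes higher and 18.6% lower), with a median of 1.03, against 0.0063 over all genes. The 2 comparisons use different embryos. They shared 34 genes that rose, which is 75.6% of those called in WT and 68% of those called in S252W and close to the shares over all genes (71.8% and 67.1%), and no gene was called in opposite directions. Without WT MC replicate 1, 45 genes rose in WT with a median of 1.11 (19.8% of all genes higher and 18.1% lower), and 40 of them were among the 45 called with it. Without S252W MC replicate 1, 29 rose and 1 fell in S252W (12.1% of all genes higher and 10.5% lower). Other cells moved with this comparison. The 9 osteoclast markers, of which 5 were tested, summed to 984 to 2586 CPM in bone and to 67.5 to 282 CPM in MC. The 8 macrophage markers summed to 167 to 279 CPM against 40.3 to 150 CPM, and the 6 endothelial markers to 192 to 258 CPM against 20.6 to 84.4 CPM. Of 5 tested macrophage markers Cd68, Csf1r and Lyz2 were higher in bone of WT, and C1qb was also called lower (−1.43) without WT MC replicate 1. In S252W Cd68 and Csf1r were higher and C1qb and C1qc lower. Red blood cell markers summed to 326 to 1540 CPM in bone and to 108 to 482 CPM in MC, with 3 of 7 tested higher in WT and 2 in S252W. None of these markers was at 0 in bone, and up to 3 osteoclast and up to 3 red blood cell markers were at 0 in an MC library. Osteoblast markers were higher and chondrocyte markers lower in bone, as given above for each tissue. Their part in the result was not tested.

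Bone and MC differed in each of the 5 complexes. In complex I, 15 of 38 genes rose in bone of WT and 16 in S252W. Ndufb9, an accessory subunit, rose by a log2 fold change of 1.98 ± 0.24 (SE, adjusted p = 1.82e-05) in WT. The largest increases in complex I of S252W were Ndufa1 (3.00 ± 0.50) and Ndufa9 (2.20 ± 0.34), both accessory subunits. Ndufs1, a core subunit that carries electrons, rose by 0.79 ± 0.21 in WT and 1.34 ± 0.22 in S252W. Ndufv1, which binds NADH, was at 0.12 ± 0.25 and 0.46 ± 0.25 and did not pass. Ndufa4 rose by 1.62 ± 0.31 in WT and by 1.67 ± 0.36 in S252W. Of the 8 Ndufaf assembly factors 1 rose in WT and 2 in S252W, near the 18% and 19.2% of all genes.

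In complex II, 2 of 4 genes rose in WT and all 4 in S252W. Sdha, the flavoprotein with the succinate site, rose by 0.70 ± 0.18 and 1.06 ± 0.19, and Sdhd by 1.60 ± 0.24 and 1.67 ± 0.25. Sdhb, the iron-sulfur subunit, was at 0.53 ± 0.23 (adjusted p = 0.0865) in WT and rose by 1.18 ± 0.26 in S252W. In complex III, 6 of 8 genes rose in WT and 7 in S252W. Uqcrfs1, the Rieske iron-sulfur protein, rose by 1.32 ± 0.23 and 2.04 ± 0.29, and Uqcrh by 1.76 ± 0.27 and 1.88 ± 0.31. Uqcrc1, a core protein without a redox centre, was at 0.11 ± 0.18 in WT and did not pass, and rose by 0.59 ± 0.18 in S252W.

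In complex IV, 9 of 13 genes tested rose in WT and 10 in S252W. The largest increase was that of Cox7b, at 2.19 ± 0.30 (adjusted p = 5.19e-05) in WT and 2.01 ± 0.35 in S252W. Cox5a rose by 1.96 ± 0.35 and 1.93 ± 0.37, where 38.7% of its exon bases are shared with another gene and the counting ignored strand. Cox4i1 rose by 1.29 ± 0.20 and 1.36 ± 0.21. Cox6b1 was at 0.07 ± 0.28 in WT, where WT MC replicate 1 had the highest of the WT bone and MC values (84.8 FPKM against 46.6 and 28.2 FPKM in the other WT MC libraries), and rose by 1.22 ± 0.34 in S252W. Without that library it was at 0.67 ± 0.29 (adjusted p = 0.0845) in WT. In complex V, 11 of 17 genes rose in either genotype. Atp5b rose by 1.59 ± 0.21 (adjusted p = 4.33e-05) and 1.77 ± 0.22, Atp5a1 by 0.90 ± 0.17 and 1.40 ± 0.18. The membrane ring subunit of the enzyme is encoded by 3 genes for the same mature protein. Of these, Atp5g3 rose by 1.21 ± 0.20 and 1.99 ± 0.23 and Atp5g1 by 1.45 ± 0.22 and 1.13 ± 0.23, while Atp5g2 was at 1.07 ± 0.46 and −0.03 ± 0.43 and did not pass. Atp5s, a coupling factor, rose by 1.95 ± 0.46 in WT, where each MC library held 3 to 20 fragments of it. Sdhaf1 rose by 2.66 ± 0.87 (adjusted p = 0.026) in WT, where each MC library held 0 to 3 fragments. The call was lost without WT MC replicate 1, 2 or 3 or WT bone replicate 2 or 3, with fold changes of 2.22 to 3.05. It shares 65.9% of its exon bases with a gene on the other strand.

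Without WT MC replicate 1, the genes that rose in bone of WT were 15 in complex I, 2 in complex II, 6 in complex III, 11 in complex IV and 10 in complex V. The calls lost were those of Sdhaf1 (2.85), Ndufb4 (0.71), Ndufb6 (0.85), Atp5d (0.48) and Atp5l (1.25), and those gained were Ndufa12 (1.20), Ndufab1 (0.92), Cox4i2 (3.06), Cox5b (1.14) and Atp5h (0.73), named because the library decided them. Among the others described above the call of Sdhb was not gained (0.68 ± 0.29, adjusted p = 0.0734), and Atp5b (1.93 ± 0.20), Sdhd (2.02 ± 0.28), Ndufb9 (2.17 ± 0.32) and Cox7b (2.39 ± 0.40) passed.

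**Figure D2:**
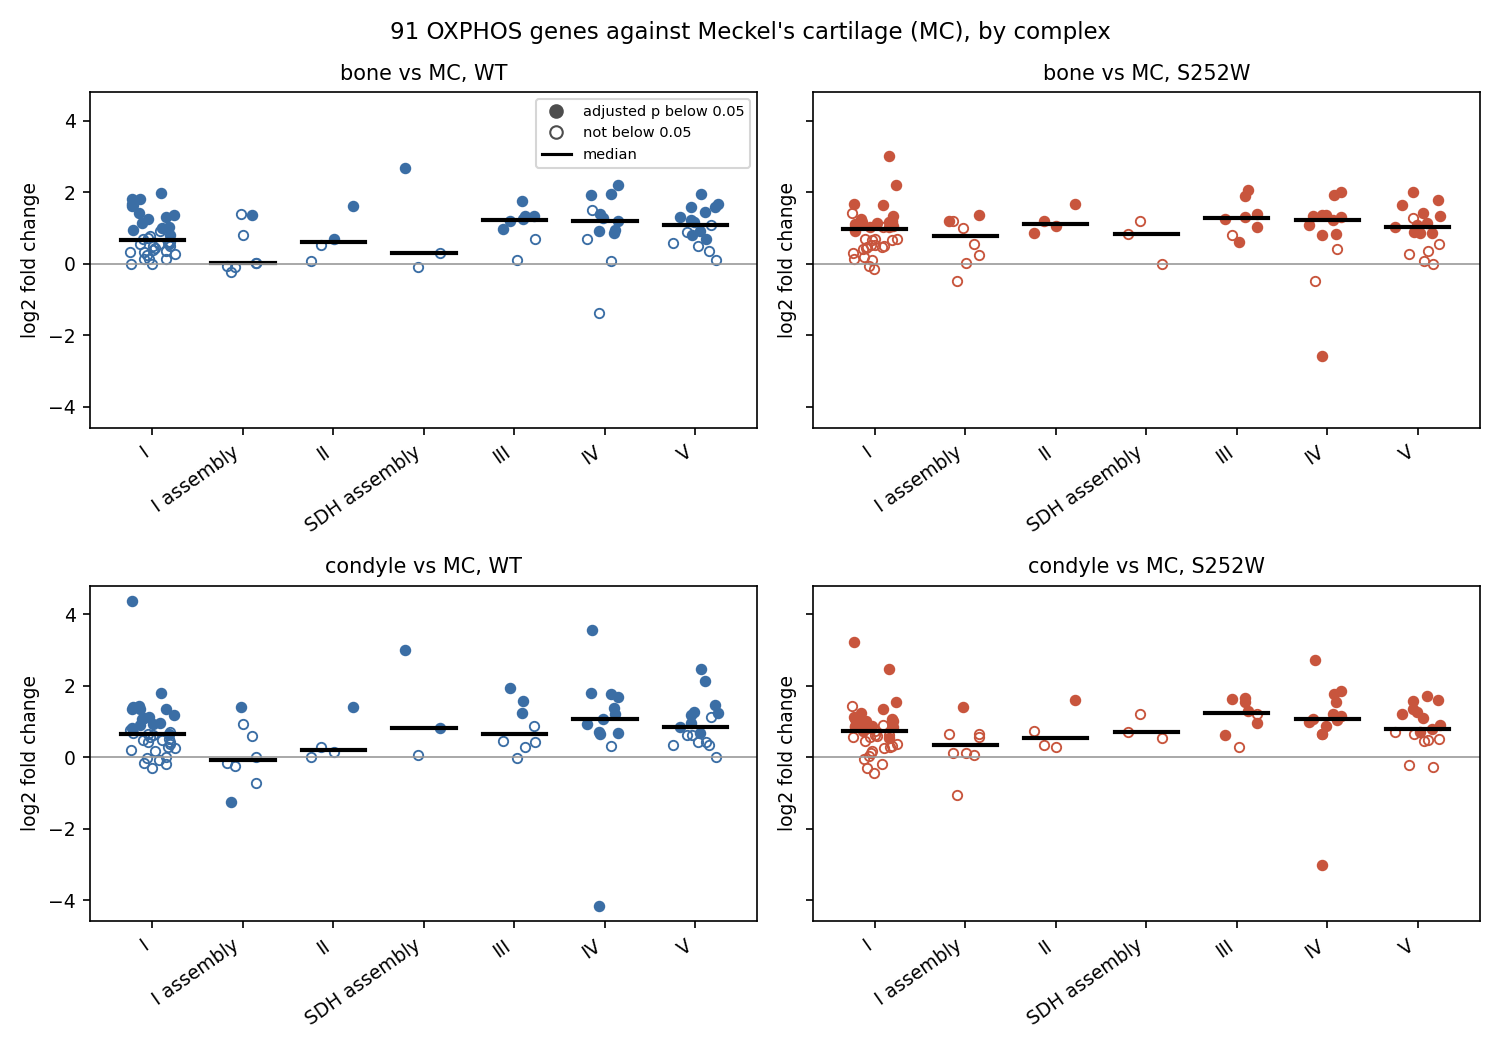
Log2 fold change of each of the 91 tested genes by complex, for bone against MC and condyle against MC in WT and S252W; each point is a gene, filled where the adjusted p was below 0.05, and lines give the median of a complex. Most points lie above 0 in all 4 panels, with 45 and 50 genes called higher in bone and 43 and 46 in the condyle.

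The condyle was also higher than MC. In WT 43 genes rose and 2 fell (22.7% of all genes higher and 23.3% lower), with a median of 0.67. In S252W 46 rose and 1 fell (21.9% of all genes in either direction), with a median of 0.77. The WT and S252W comparisons shared 35 genes that rose and 1, Cox6b2, that fell. The 35 are 81.4% of those that rose in WT and 76.1% in S252W, close to the 74.4% and 77.2% over all genes. Without WT MC replicate 1, 47 rose and 1 fell in WT, with a median of 0.88 (23% of all genes higher and 21.9% lower), 39 of the calls were kept, and without S252W MC replicate 1, 27 rose and 1 fell in S252W (17.4% of all genes higher and 16.1% lower). By complex, 16 and 17 of 38 genes rose in complex I of WT and S252W, 1 and 1 of 4 in complex II, 3 and 6 of 8 in complex III, 11 and 11 of 13 in complex IV and 9 and 10 of 17 in complex V. Without WT MC replicate 1 the counts in WT were 18, 1, 4, 12 and 10. Calls lost in WT without it were those of Ndufb6 (0.80), Ndufv3 (0.95), Ndufaf3 (1.65), Ndufaf5 (−0.25), Atp5l (0.84) and Sdhaf2 (0.40), and those gained were Ndufa5 (1.34), Ndufa12 (1.04), Ndufs1 (0.66), Ndufs5 (1.89), Ndufaf2 (1.97), Uqcrc2 (0.73), Cox6b1 (0.96), Atp5h (0.67) and Atp5o (0.83). Atp5g1 rose by 2.12 ± 0.22 (adjusted p = 9.03e-07) in WT and 1.70 ± 0.23 in S252W. Cox5a rose by 1.77 ± 0.36 and 1.75 ± 0.37, Cox7b by 1.68 ± 0.30 and 1.84 ± 0.35 and Ndufa1 by 1.33 ± 0.35 and 2.46 ± 0.51. Ndufv1 (−0.16 ± 0.25 and −0.31 ± 0.26), Sdha (0.13 ± 0.19 and 0.27 ± 0.19) and the core protein Uqcrc1 (−0.02 ± 0.18 and 0.27 ± 0.18) did not pass. Sdhaf1 (3.00) and Atp5s (2.47) rose in WT on few MC fragments, and the call of Sdhaf1 was lost without WT MC replicate 3 (2.55). Chondrocyte markers move with this comparison, from 442 to 10144 CPM in MC to 32230 to 39720 CPM in the condyle, with none of the 9 at 0 in either tissue. Osteoblast markers were higher in the condyle, with 6 of 8 tested called in WT (7 without WT MC replicate 1) and 8 in S252W. Other cells moved the opposite way. Osteoclast markers summed to 67.5 to 282 CPM in MC and to 15.5 to 52.3 CPM in the condyle, with 4 of 5 tested called lower in either genotype. Macrophage markers summed to 40.3 to 150 CPM and to 5.76 to 16.7 CPM, with 5 of 5 lower, and endothelial markers to 20.6 to 84.4 CPM and to 5.49 to 23.7 CPM, with 3 of 4 lower, none of which was called in WT without WT MC replicate 1. Red blood cell markers summed to 108 to 482 CPM and to 33.3 to 228 CPM, with 3 of 7 lower in WT and 2 in S252W. Of osteoclast, macrophage and red blood cell markers up to 3 were at 0 in a condyle library. Their part in the result was not tested. The comparisons of bone and of the condyle share their MC libraries.

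Short transcripts moved with the tissue. The 91 genes have a median exon length of 1001 bases, against 2980 over all genes tested. For bone against MC of WT, genes under 1000 bases had a median log2 fold change of 0.17 and the 45 genes of oxidative phosphorylation among them 0.91. Genes of 4000 bases or more had a median of −0.23. With a curve of each library against length subtracted, 33 genes rose and 1 fell in bone of WT with a median of 0.45 (16.2% of all genes higher and 15.2% lower), and 29 rose and 2 fell in the condyle of WT with a median of 0.35 (21.9% higher and 22.2% lower). In S252W, where the median of short genes over all genes was −0.19 in bone against MC, 45 genes rose and 1 fell with the curve subtracted, with a median of 0.86 (18.9% of all genes higher and 17.8% lower). For the condyle against MC in S252W, 34 rose and 2 fell with the curve subtracted, with a median of 0.62 (21.9% of all genes higher and 21% lower).

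Cox4i2 and Ndufa4l2 stood apart from their complexes by their level in the condyle. Cox4i2 encodes the isoform of subunit IV known from lung and from responses to low oxygen, and Ndufa4l2 encodes a relative of Ndufa4 that is induced by hypoxia-inducible factors. Cox4i2 (chr2:152754173-152765037, plus strand) stood at 19.7, 21.5 and 25.2 FPKM in WT condyle and at 23.6, 21.1 and 23.9 FPKM in S252W condyle. In bone it stood at 5.01, 3.54 and 6.38 FPKM in WT and at 2.92, 2.31 and 2.11 FPKM in S252W. In MC it stood at 5.07, 0 and 1.67 FPKM in WT and at 3.05, 3.72 and 3.55 FPKM in S252W, so that no library of another tissue reached the condyle. Relative to MC it rose in the condyle by a log2 fold change of 3.56 ± 0.60 (adjusted p = 0.00011) in WT and 2.71 ± 0.50 in S252W. These changes rest on 43, 0 and 7 fragments in WT MC and on 18, 13 and 16 in S252W MC. Without WT MC replicate 1, which had the highest MC value, the change in WT was 5.18 ± 0.76. Leaving out WT MC replicate 2, the library with 0 fragments, gave 2.70. Bone was lower than the condyle by 2.08 ± 0.35 on the log2 scale in WT, a fold change of −2.08 (adjusted p = 0.00017), and in S252W the fold change was −3.21 ± 0.42.

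Ndufa4l2 (chr10:127514939-127517152, plus strand) stood at 19.7, 22.3 and 22.2 FPKM in WT condyle and at 28.8, 23.6 and 8.69 FPKM in S252W condyle. In bone it ranged from 1.92 to 5.99 FPKM and in MC from 0.195 to 3.28 FPKM over both genotypes. Libraries of MC held only 1 to 17 fragments of it. The low condyle value was that of S252W replicate 3, the condyle library with the most osteoblast markers (26710 CPM), and it was still above every library of bone and MC. Ndufa4l2 rose in the condyle relative to MC by 4.37 ± 0.59 (adjusted p = 1.31e-05) in WT and 3.21 ± 0.52 in S252W. The log2 fold change of bone against the condyle was −2.58 ± 0.36 (adjusted p = 3.07e-05) in WT and −3.09 ± 0.38 in S252W. Chondrocyte markers move with both genes between bone and condyle (228 to 590 against 32230 to 39720 CPM), and their part in the difference was not tested. Ndufa4 itself stood at 49.6 to 57.0 FPKM in WT condyle and 55.3 to 124 FPKM in WT bone, and Cox4i1 at 81.8 to 98.9 and 98.5 to 130 FPKM, so that the named relatives remained the higher of each pair.

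Cox6b2, the isoform of subunit VIb known from testis, had the opposite order. It stood at 5.14, 4.65 and 3.80 FPKM in WT MC and at 6.67, 4.86 and 3.54 FPKM in S252W MC. In bone it stood at 3.43, 1.39 and 1.22 FPKM in WT and 1.17, 0.778 and 0.506 FPKM in S252W, and in the condyle at 0 to 1.21 FPKM. All 6 MC libraries lay above all libraries of the other tissues. These levels rest on 0 to 41 fragments in a library. The log2 fold change of the condyle against MC was −4.17 ± 0.81 (adjusted p = 0.00046) in WT and −3.02 ± 0.68 in S252W, and that of bone against MC was −2.60 ± 0.62 (adjusted p = 0.0035) in S252W and −1.39 ± 0.63 (adjusted p = 0.0952) in WT. For the condyle of WT it was −2.77 without WT condyle replicate 1, which held 0 fragments, and −4.88 without WT condyle replicate 3. Cox6b1, the common isoform (chr7:30616974-30626151, minus strand), stood at 23.8 to 84.8 FPKM in MC.

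**Figure D3:**
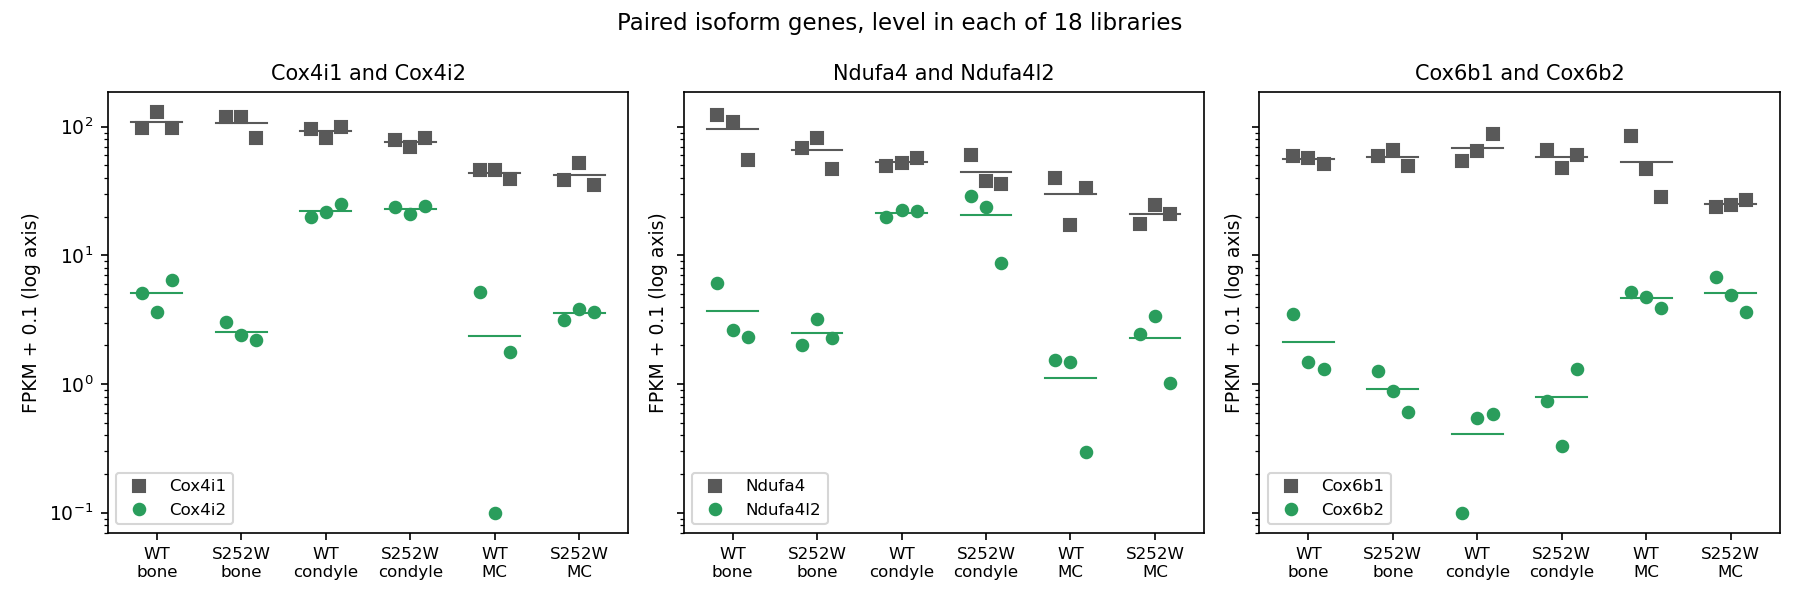
Level of 3 pairs of related genes (Cox4i1 and Cox4i2, Ndufa4 and Ndufa4l2, Cox6b1 and Cox6b2) in the 18 libraries, in FPKM plus 0.1 on a log axis; each point is a library and lines give group means. Cox4i2 and Ndufa4l2 are highest in the condyle, Cox6b2 is highest in MC, and the first gene of each pair is the higher in every library.

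Bone and condyle differed in fewer of these genes. In WT 8 of the 91 genes were higher in bone and 5 lower (18.4% of all genes higher and 16.7% lower), with a median log2 fold change of 0.18. In S252W 11 were higher and 6 lower (15.8% of all genes higher and 14.3% lower), with a median of 0.22. Called the same way in both genotypes were Sdha, Uqcrfs1, Uqcrc2 and Cox7a2l, which were higher in bone, and Ndufa8, Uqcr11, Atp5g1, Cox4i2 and Ndufa4l2, which were higher in the condyle. The 4 higher in bone are 50% of those called higher in WT and 36.4% in S252W, below the 72.8% and 85% over all genes. The 5 higher in the condyle are all of the 5 called so in WT and 5 of the 6 in S252W. Uqcrfs1 rose in bone by 1.04 ± 0.21 (adjusted p = 0.0011) in WT and 0.75 ± 0.22 in S252W. Cox7a2l, which encodes a factor of respiratory supercomplexes, rose by 0.77 ± 0.18 and 0.71 ± 0.18, and Sdha by 0.57 ± 0.18 and 0.79 ± 0.18. Ndufa8, an accessory subunit of complex I, had a log2 fold change of −1.0 ± 0.27 and −0.76 ± 0.26, and Uqcr11 of complex III one of −0.75 ± 0.24 and −0.84 ± 0.26. Among those called in WT alone, Cox6b2 (2.78 ± 0.83) and Ndufb11 (0.83) were higher in bone. Among those called in S252W alone, Sdhb (0.83 ± 0.22), Ndufb10 (0.79) and Ndufv1 (0.77 ± 0.24) were higher and Cox8a (−0.64 ± 0.23) was lower. The difference between the genotypes did not pass the test for any of the 91 genes. Osteoclast markers were at 984 to 2586 CPM in bone and at 15.5 to 52.3 CPM in the condyle. Macrophage markers were at 167 to 279 against 5.76 to 16.7 CPM, endothelial markers at 192 to 258 against 5.49 to 23.7 CPM and red blood cell markers at 326 to 1540 against 33.3 to 228 CPM, while osteoblast markers were higher and chondrocyte markers lower in bone. Their part in the result was not tested.

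Single libraries decided several of these calls. In WT, leaving out condyle replicate 1 ended the calls of Cox6b2 (1.61), Sdha (0.41) and Ndufb11 (0.70), and leaving out condyle replicate 3 ended those of Atp5g1 (−0.51) and Uqcr11 (−0.47). In S252W, leaving out bone replicate 1 ended the call of Ndufv1 (0.55), bone replicate 2 that of Ndufb10 (0.46), bone replicate 3 that of Cox8a (−0.42), and condyle replicate 1 those of Ndufa8 (−0.49) and Uqcr11 (−0.64). Each of these calls, and that of Sdhb in S252W, was also lost without at least 1 other library. Counts of genes called ranged from 8 to 15 in WT and from 5 to 13 in S252W, lowest without WT condyle replicate 1 or WT bone replicate 2 and without S252W bone replicate 1. Cox4i2 and Ndufa4l2 passed without any 1 library, with log2 fold changes of −2.46 to −1.87 and −3.17 to −2.28 in WT.

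Genes of the wider pathway that the naming rule does not take were counted from lists made for this purpose. Of 20 electron carriers and other genes of the chain, 10 rose in bone relative to MC in WT and 11 in S252W, and none fell (18% and 19.2% of all genes higher, 17% and 18.6% lower). Among them were Cycs, cytochrome c (1.97 ± 0.41 in WT and 2.78 ± 0.53 in S252W), and Slc25a5, an ADP and ATP carrier (2.02 ± 0.27 and 2.35 ± 0.28). Of 16 genes of the TCA cycle, which feeds the chain with electrons, 7 rose in WT and 12 in S252W and none fell, with Dld at 1.46 ± 0.19 and 1.85 ± 0.20. In the condyle relative to MC, 7 and 6 carriers rose and 1 fell in WT, and 4 and 8 TCA genes rose (22.7% and 21.9% of all genes higher, 23.3% and 21.9% lower). Between bone and condyle, 5 and 2 carriers and 4 and 7 TCA genes were higher in bone and none was lower (18.4% and 15.8% of all genes higher, 16.7% and 14.3% lower). The 4 TCA genes of the condyle in WT and the 2 carriers of bone against the condyle in S252W were near or below the share over all genes. Leaving out WT MC replicate 1, 12 carriers and 8 TCA genes rose and 1 carrier fell in bone relative to MC of WT, and 9 carriers and 5 TCA genes rose and 1 carrier fell in the condyle.

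Of the 13 subunits encoded by mitochondrial DNA, 4 rose in bone relative to MC in WT (18% of all genes) and none in S252W. The 4 were mt-Cytb (1.32), mt-Nd1 (1.23), mt-Nd2 (1.01) and mt-Nd4 (0.99). In the condyle relative to MC 2 rose in WT, mt-Nd1 and mt-Nd2, and none in S252W, which is below the 22.7% and 21.9% of all genes called higher. Counts of 4 and 2 were also found without WT MC replicate 1. Of 29 tested assembly factors outside the naming rule, 4 rose and 2 fell in bone relative to MC of WT and 5 rose in S252W, a smaller share than over all genes (18% and 19.2% higher, 17% and 18.6% lower). Those called included Coa6 and Coa3, both for complex IV, with log2 fold changes of 2.51 and 1.42 in WT and 1.43 and 1.25 in S252W. Against MC, 5 and 3 of them rose in the condyle and none fell. Between bone and condyle 2 rose and 3 fell in WT, and 1 rose and 1 fell in S252W. These counts too were below the shares over all genes given above. When WT MC replicate 1 was left out, 5 rose and 1 fell in bone and 5 rose in the condyle of WT. Of 12 tested regulators of mitochondrial biogenesis, 2 were lower in bone than in MC of WT, Nrf1 (−0.74) and Gabpb1 (−0.70). In S252W Tfam (1.24) and Gabpa (0.68) rose and Polrmt (−1.05) fell. Nrf1 encodes the factor whose motif was searched above. In the condyle relative to MC its log2 fold change was −0.70 in WT and −0.93 in S252W, 2 regulators fell in WT, and 1 rose and 3 fell in S252W. In bone relative to the condyle 1 rose and 1 fell in WT, and 1 rose in S252W. Such counts of 12 genes were near or below the shares over all genes. With the same library left out, 1 regulator rose and 2 fell in bone relative to MC of WT, where Nrf1 (−0.82) passed and Gabpb1 (−0.56) did not, and 1 fell in the condyle, where Nrf1 (−0.76) did not pass.

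The effect of the mutation was compared between embryos within each tissue, with limma and without a block. None of the 91 genes passed in any tissue. In bone 10 of all 11469 genes passed (0.0872%), in MC none did (0%) and in the condyle none did (0%). At an unadjusted p under 0.05, 1 gene of oxidative phosphorylation was higher in S252W bone and 9 were lower (4% of all genes higher and 4.12% lower). In MC 1 was higher and 13 were lower (8.1% of all genes higher and 7.25% lower), and in the condyle none was higher and 1 was lower (1.56% and 1.5%). With edgeR's quasi-likelihood test and with DESeq2, none passed in bone or in the condyle. In MC edgeR called 1 higher and 1 lower, among 90 genes in all, and DESeq2 1 higher and 6 lower, among 423 genes.

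Although no gene was called, most fold changes were below 0. The log2 fold change of S252W against WT was negative for 61 of 91 genes in bone (50.1% of all genes), for 61 in MC (47.9% of all genes) and for 72 in the condyle (51.3% of all genes). The medians were −0.19, −0.26 and −0.21, against −0.00074, 0.026 and −0.010 over all genes tested. The median SE of a single gene was 0.23, 0.38 and 0.26, which is not the error of a median over genes. In complex I of the condyle 35 of 38 genes were below 0, with a median of −0.24. Genes that are read from 1 library share its errors, so these counts are a description and carry no test.

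**Figure D4:**
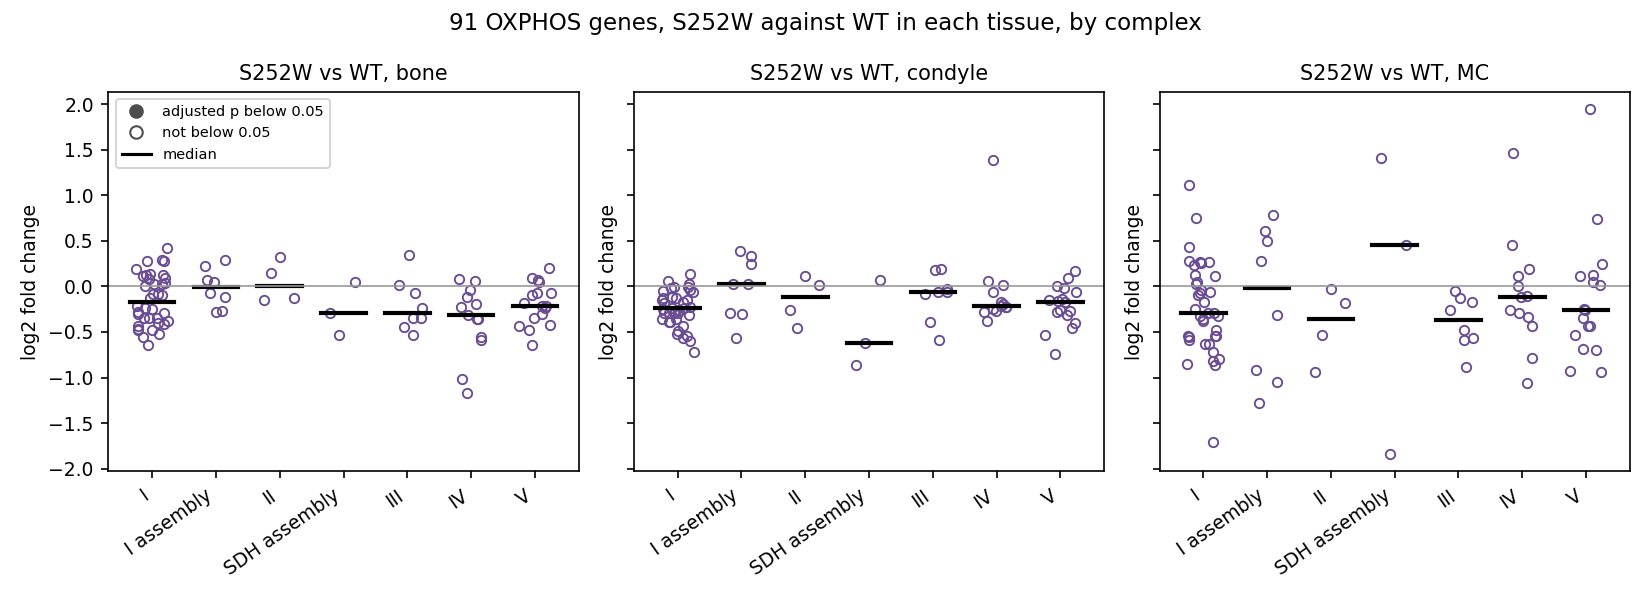
Log2 fold change of S252W against WT of each of the 91 tested genes by complex, in bone, MC and condyle; each point is a gene, lines give the median of a complex and a filled point would mark an adjusted p below 0.05. No point is filled, and the points spread most widely in MC.

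The shift moved with transcript length in bone. Over all genes under 1000 bases the median log2 fold change was −0.24 in bone, 0.067 in MC and −0.16 in the condyle, and that of the 45 genes of oxidative phosphorylation of this length was −0.29, −0.24 and −0.28. With the curve of each library against length subtracted, the median over the 91 genes was 0.02 in bone, −0.29 in MC and −0.08 in the condyle. Fold changes below 0 were then 45 of 91 in bone (48.6% of all genes), 62 in MC (48.9%) and 63 in the condyle (50.5%). At an unadjusted p under 0.05, 4 genes were then higher and 2 lower in bone (2.85% of all genes higher and 3.17% lower). In MC 1 was higher and 16 lower (7.91% and 7.59%), and in the condyle 0 and 1 (1.53% and 1.35%). Before the curve was subtracted, the median in MC rested on 1 library. Without WT MC replicate 1, which has few chondrocyte markers, it was −0.03, with none of the 91 genes called. At an unadjusted p under 0.05 there were then 4 higher and 8 lower (6.77% of all genes higher and 6.46% lower), and 47 of 91 fold changes were below 0 (48.4% of all genes). Macrophage markers summed to 40.3, 87.6 and 70.5 CPM in WT MC and to 150, 143 and 105 CPM in S252W MC, and osteoclast markers to 282, 126 and 95.6 CPM and to 69.3, 67.5 and 79.1 CPM, so that neither sum overlapped between genotypes. In WT bone, muscle markers were high in replicates 1 and 2 (826 and 758 CPM against 60.5 to 143 CPM), red blood cell markers stood at 1289 to 1540 CPM against 326 to 624 CPM in S252W bone, and osteoclast markers at 984 to 1287 against 1869 to 2586 CPM. The 8 macrophage markers summed to 167 to 195 CPM in WT bone and to 218 to 279 CPM in S252W bone. The 5 of them that were tested had a median log2 fold change of −1.47, opposite to the sum. Of these Lyz2 was called lower in S252W (−1.47 ± 0.28, adjusted p = 0.0483). In the condyle muscle markers stood at 16.5, 251 and 524 CPM in WT and at 24.8, 19.2 and 15.9 CPM in S252W. The part of these cells in the values was not tested.

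**Figure D5:**
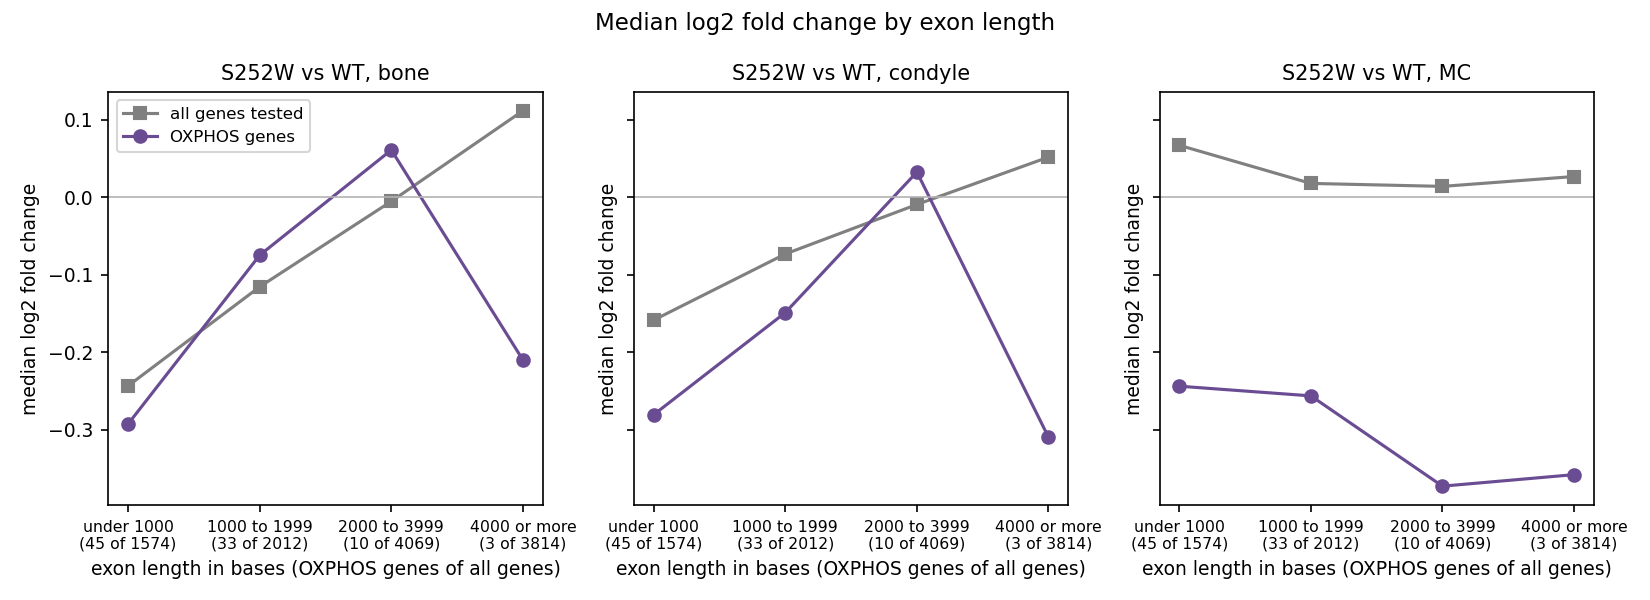
Median log2 fold change of S252W against WT by exon length class (under 1000, 1000 to 1999, 2000 to 3999, and 4000 or more bases), for the tested genes of oxidative phosphorylation and for all 11469 genes, in the 3 tissues. In bone and condyle the medians of all genes rise with length, from −0.24 to 0.11 and from −0.16 to 0.052, and the class of 4000 or more bases holds 3 of the 91 genes.

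The pair of genes with the lowest p of each tissue had differences of less than 1 on the log2 scale, except for Atp5s. In bone Ndufa2, an accessory subunit of complex I, stood at 38.8, 29.0 and 26.0 FPKM in WT and at 18.7, 23.7 and 16.6 FPKM in S252W, a log2 fold change of −0.65 ± 0.24 (95% interval −1.15 to −0.15, adjusted p = 0.473). Ndufs4, which serves assembly and stability of complex I, was at −0.52 ± 0.20 (adjusted p = 0.501). With limma's sample quality weights it passed (−0.61, adjusted p = 0.0263), and its highest WT values were in the 2 libraries with muscle markers (33.3 and 28.8 FPKM against 18.9 FPKM in replicate 3). The S252W values of Ndufs4 (16.9 to 20.6 FPKM) overlapped those of WT, while those of Ndufa2 did not. Uqcrc1 was the 1 gene with a higher value at an unadjusted p under 0.05 in bone (0.35 ± 0.16, adjusted p = 0.602).

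In MC Ndufa10 stood at 16.2, 17.7 and 20.2 FPKM in WT and at 11.9, 9.81 and 10.4 FPKM in S252W, a log2 fold change of −0.72 ± 0.22 (95% interval −1.17 to −0.26, adjusted p = 0.146). The groups did not overlap. DESeq2 gave it an adjusted p of 0.00978. Atp5s held 20, 3 and 4 fragments in WT MC and 37, 16 and 22 in S252W MC, a log2 fold change of 1.94 ± 0.52 (95% interval 0.87 to 3.02, adjusted p = 0.105). It passed with edgeR (adjusted p = 0.0435) and with DESeq2 (adjusted p = 0.00513). In the condyle Uqcrq, a small subunit of complex III, stood at 15.1, 15.6 and 16.6 FPKM in WT and at 11.4, 10.5 and 9.20 FPKM in S252W. These did not overlap, and the log2 fold change was −0.58 ± 0.22 (95% interval −1.04 to −0.12, adjusted p = 0.998). Atp5mpl, a small membrane protein of the ATP synthase, was at −0.54 ± 0.27 (adjusted p = 0.998).

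For the genes with the highest level the intervals bound the change. Atp5b had a log2 fold change of 0.20 ± 0.20 (95% interval −0.21 to 0.61) in bone, 0.02 ± 0.21 (−0.42 to 0.46) in MC and 0.17 ± 0.20 (−0.24 to 0.57) in the condyle. Uqcrh had −0.35 ± 0.23 (−0.82 to 0.13) in bone, −0.48 ± 0.41 (−1.33 to 0.37) in MC and −0.06 ± 0.26 (−0.59 to 0.48) in the condyle. Ndufa4 had −0.48 ± 0.27 (−1.04 to 0.07), −0.55 ± 0.48 (−1.56 to 0.46) and −0.25 ± 0.32 (−0.92 to 0.43), and in bone of both genes the highest values were those of WT replicates 1 and 2, which hold muscle markers. Sdhd had −0.13 ± 0.20 (−0.54 to 0.28), −0.18 ± 0.32 (−0.84 to 0.49) and 0.01 ± 0.21 (−0.43 to 0.45). For Cox6a1 the values were −0.36 ± 0.24 (−0.86 to 0.15), −0.34 ± 0.34 (−1.05 to 0.37) and −0.19 ± 0.24 (−0.69 to 0.31). The spread between replicates was largest in MC, where the median SD of a gene of oxidative phosphorylation was 0.49 on the log2 CPM scale, against 0.25 in bone and 0.27 in the condyle. None of the 20 electron carriers, 16 TCA genes, 13 mitochondrially encoded subunits, 29 assembly factors and 12 regulators was called between genotypes in any tissue.

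Whether the effect of the mutation differed between tissues was tested as a difference of differences with the embryo as a block. None of the 91 genes passed between bone and MC (0.0349% of all genes, or 4, did), between bone and condyle (0%) or between condyle and MC (0%). At an unadjusted p under 0.05 there were 10, 1 and 5, near or below the 10.6%, 2.89% and 9.92% of all genes. With the length curve subtracted still none passed, but 16 were higher and 2 lower between bone and MC (5.19% of all genes higher and 4.83% lower). Their median difference was then 0.28, against 0.074 before and −0.11 without WT MC replicate 1 and without the curve. Between bone and condyle there were then 3, and between condyle and MC 7 (2.82% and 9.67% of all genes). None passed without WT MC replicate 1 in the tests that use it. The smallest adjusted p of a gene was that of Ndufa10 between bone and MC (1.04 ± 0.26, adjusted p = 0.201), where its effect was 0.29 ± 0.15 in bone and −0.72 ± 0.22 in MC. Atp5s differed by −2.03 ± 0.59 between condyle and MC (adjusted p = 0.274). Ndufa1, whose increase in bone relative to MC was 1.31 in WT and 3.00 in S252W, had a difference of 1.69 ± 0.61 (adjusted p = 0.372), and for Cox4i2 it was −1.98 ± 0.81 (adjusted p = 0.41). With edgeR none passed in the 3 tests, and with DESeq2 1 passed between bone and MC, among 68 genes in all.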

How the data were processed

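RNA from laser-captured tissue was amplified (NuGEN Ovation RNA-Seq v2) and prepared with Nextera XT. Per the labels and methods, the authors trimmed reads with cutadapt, mapped them to mm10 with STAR and counted fragments on exons of Ensembl GRCm38 release 75 without transcripts subject to nonsense-mediated decay, using featureCounts 1.5.0-p1 without regard to strand, and named RSEM and limma as further tools. The deposited values are raw counts per gene. By the counting settings, fragments that map to several places or overlap several genes were not counted, so genes with near-identical pseudogenes or overlapping exons can be undercounted. Whether duplicates were removed is not stated. Amplified fragments are not independent molecules.

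Symbols and biotypes came from GENCODE vM21. In R 4.3.3, FPKM were computed from exon length and TMM-scaled totals, and limma 3.58.1 tested each gene whose FPKM exceeded 1 in 50% or more of the libraries (voom with a prior count of 0.5, 1 mean for each of 6 groups, threshold 0.05 on the adjusted p). Contrasts between tissues and differences between them held the 6 embryos as a fixed block, with 8 residual degrees of freedom, and contrasts between genotypes had none, with 12. For contrasts between genotypes, p-values measure the spread between libraries of a group, pooled over the 3 tissues of the 6 embryos. For contrasts between tissues and their differences, the block takes out what libraries of 1 embryo share. Those p-values measure the spread left within embryos, where each tissue has 1 library. edgeR 4.0.16, DESeq2 1.42.0, other filters and scalings, a loess curve against length (span 0.3), other blocks and each library left out were the alternatives, and the length of the main transcript was added for levels after seeing the data. The tests were checked on simulated counts. Figures were drawn with matplotlib 3.10.9. No column of another sample was found or used (0).

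The genes, gene lists and tests were chosen with earlier results of these data known. Named were up to 5 called genes with the largest change and no overlap in each direction and contrast, the 2 with the smallest p in each genotype contrast, the highest gene of each complex, 11 core subunits, and related isoforms, with the limits of ranges. Some genes that the rule would name are not reported here. Genes of the wider lists were named as examples after their values were seen.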

Additional observations from a re-analysis of the deposited data

How the results depend on the processing

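No called change of a named gene was reversed. Bone against MC in WT (45 genes called, 35 to 45 with 1 library left out), S252W against WT in the condyle (0) and the other 2 differences of the effect (0) stayed within 1.5 times under every alternative. Between genotypes in bone (0 called), sample quality weights gave 3 and leaving out 1 library gave 0 to 2, highest without WT bone replicate 3. In MC (0 called), edgeR gave 2, DESeq2 7 and leaving out 1 library 0 to 1, highest without WT MC replicate 3. For bone against condyle in WT (13 called), quality weights gave 23 and leaving out 1 library 8 to 15. In S252W (17 called), edgeR gave 11, quality weights 31 and leaving out 1 library 5 to 13. For condyle against MC in WT (45 called) the 6 libraries alone gave 29. In S252W, leaving out 1 library gave 30 to 48 for bone against MC (51 called) and 28 to 43 for condyle against MC (47 called). The difference of the S252W effect between bone and MC had 1 called gene with DESeq2. Causes were not tested. Shares over all genes under most of these alternatives are not given here. A higher or lower count is therefore not a result about these genes. For single named genes, 57 calls were lost and 4 gained over all alternatives, while 772 values kept their side of the threshold.

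Equal replicate numbers of the genotypes were not taken as pairs of embryos. The mean correlation of their deviations was 0.076 in bone, −0.078 in MC and 0.123 in the condyle. With the shared number as the replicate block 0, 0 and 0 genes were called between genotypes. The tissues are paired by embryo, where the mean correlations lay between −0.055 and 0.069. Without the embryo as the block (no replicate block in these contrasts) 48 genes were called for bone against MC in WT and 55 in S252W, 43 and 45 for condyle against MC, and 13 and 20 for bone against condyle. Shares over all genes without the block are not given here either. Depth limits Sdhaf1, Atp5s, Cox6b2, Cox4i2 and Ndufa4l2, with 0 to 43 fragments in MC.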

Other observations

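Fragments of the 13 mitochondrially encoded subunits per fragment of the 97 nuclear genes were 4.11 in WT bone, 3.08 in WT condyle and 4.68 in WT MC as means of 3 libraries, and 3.22, 3.85 and 6.89 in S252W. In single libraries the ratio ranged from 2.55 in WT condyle replicate 1 to 9.32 in S252W MC replicate 2. Within S252W MC it was 4.11, 9.32 and 7.26, so that libraries of 1 group differed by more than the group means of bone and condyle.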
